A study of Mus musculus with 12 samples.

Results

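The constitutive proteasome is the protease complex that degrades most ubiquitin-tagged protein in a cell. Its core, the 20S particle, is a barrel of outer alpha rings, which gate entry, and inner beta rings, which hold the proteolytic sites. The 19S particle caps the barrel, binds ubiquitin chains through its receptors, removes the chains and unfolds the substrate with a ring of ATPases, and dedicated chaperones assemble both particles. In macrophages, inflammatory stimulation exchanges the catalytic beta subunits for those of the immunoproteasome, which is linked to antigen processing, and the transcription factors Nfe2l1 and Nfe2l2 are known to act on proteasome genes through antioxidant response elements.

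The genes of this complex were read from RNA-seq of bone marrow-derived macrophages (BMDMs) of wildtype mice, which had been differentiated for 6 days with M-CSF (20 ng/ml), IL-4 (20 ng/ml) and IL-10 (10 ng/ml), all 3 cytokines being present in every group. DMSO, the solvent control, olaparib, an inhibitor of poly(ADP-ribose) polymerases, or MNA (methyl-nicotinamide), a methylated derivative of nicotinamide, was present over the same 6 days, with 4 libraries numbered 1 to 4 in each group. The marrow came from several donor mice, but nothing in the labels ties a library to a mouse, so the p-values measure the spread between these libraries. Mice used for bone marrow were females or males of 6 to 10 weeks. The strain of these donors, the sex of the donor of each library and the concentrations of both compounds in these cultures are not given in the sources used here, and each library is bulk RNA of a whole culture. Members were chosen by symbol (Psma, Psmb, Psmc, Psmd, Psme, Psmf or Psmg followed by a number), without the immunoproteasome genes Psmb8, Psmb9 and Psmb10, the thymus gene Psmb11 and 4 pseudogenes, and with a mean of at least 10 counts over the 12 libraries. This gave 46 of the 35275 genes listed, and all 46 passed the filter on low counts that left 12849 genes for testing. By role they comprise 8 alpha genes, 7 beta genes, 6 ATPases of the 19S particle, 11 other 19S subunits, 7 assembly chaperones, 5 regulators that bind the 20S particle, and 2 genes that carry a matching symbol without being subunits. These last are Psmc3ip, a meiotic recombination protein, and Psme2b, a close copy of Psme2.

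Levels are CPM, each library's counts scaled to a common total after TMM normalisation, and differences are log2 fold changes from edgeR's quasi-likelihood test with Benjamini-Hochberg adjustment over all tested genes, called at an adjusted p under 0.05. Total counts were 21146291 to 31446849 per library. On the first principal component of all tested genes, MNA replicate 2 lay at -36.0, inside the DMSO range of -43.7 to -33.6, whereas the other 3 MNA libraries lay at 59.9 to 63.4. Whether this library carries a wrong label or had another treatment cannot be told from the files. Called differences between MNA and DMSO are therefore given with and without it. The common dispersion fitted by edgeR was 0.0333 with that library and 0.0123 without it. Of 10 macrophage markers all were detected, Fcgr1 at no more than 2.30 CPM. Their summed level was 5514 to 7554 CPM with DMSO and 10190 to 13270 CPM with olaparib. With MNA it was 5006 to 7934 CPM, the 5006 CPM being that of MNA replicate 2. Single markers went in opposite directions. Arg1 held 12.9, 10.4 and 10.9 CPM in MNA replicates 1, 3 and 4, against 434 to 690 CPM with DMSO. Csf1r held 1718, 1837 and 1647 CPM there, against 435 to 605 CPM with DMSO. Lyz2 alone held 5112 to 6556 CPM with olaparib, against 1624 to 2531 CPM with DMSO. The summed level of 7 proliferation markers was 27.4 to 52.6 CPM with DMSO, 71.9 to 144 CPM with olaparib and 32.5 to 123 CPM with MNA, the 32.5 CPM being that of MNA replicate 2. Neutrophil and erythroid markers reached 65.3 and 54.5 CPM in MNA replicate 4, and those of mast cells, B or T cells and stromal cells stayed at or under 4.24 CPM. Dendritic cell markers summed to 17.6 to 21.1 CPM with DMSO, 18.2 to 23.0 CPM with olaparib and 18.4 to 26.7 CPM with MNA. The part of these cells in the results below was not tested, and in bulk RNA fewer cells of a type and less RNA per cell cannot be told apart.

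The stretches before the RefSeq start sites of a few members are shown. Psmb5, Psmb6, Psmd8 and Psma4 are among the members with the largest differences described below, and a motif for Nfe2l1 and Nfe2l2 lies before Psmb5 and Psmb6. Psmd6 and Psmc1 are shown for another motif, the ETS core. The stretches were taken from RefSeq's promoter windows on GRCm38.p6, 5′ to 3′ on the gene's strand. Capitals mark a match to the core of the antioxidant response element, TGACNNNGC, or to the ETS core, CCGGAAGT, searched on both strands. Psmb5 and Psmb6 encode catalytic beta subunits, and both have the antioxidant core, ending 39 bases before the RefSeq start of Psmb5 and directly at that of Psmb6. Psmd8, a subunit of the lid of the 19S particle, and Psma4, an alpha subunit, have no match to any searched motif in the 250 bases before the RefSeq start. Psmd6, another lid subunit, and the ATPase Psmc1 have the ETS core, for which only the site with 10 bases on each side is shown. For all of these genes but Psmb6, the GENCODE gene used for the counts starts further upstream than the RefSeq start. The stretches of Psmb5, Psmd8 and Psma4 end just before that GENCODE start, 28, 29 and 70 bases before the RefSeq start. That of Psmb6 runs up to its RefSeq start. The stretch of Psmc1 lies inside the GENCODE gene and that of Psmd6 partly so.
Psmb5 (chr14:54618023-54618122, minus strand): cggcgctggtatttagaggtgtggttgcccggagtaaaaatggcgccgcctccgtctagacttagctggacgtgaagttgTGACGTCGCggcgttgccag
Psmb6 (chr11:70525257-70525356, plus strand): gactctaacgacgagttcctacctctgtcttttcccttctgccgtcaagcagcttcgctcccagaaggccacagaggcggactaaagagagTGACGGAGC
Psmd8 (chr7:29180702-29180801, minus strand): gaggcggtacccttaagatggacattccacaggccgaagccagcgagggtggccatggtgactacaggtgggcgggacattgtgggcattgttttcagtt
Psma4 (chr9:54950690-54950789, plus strand): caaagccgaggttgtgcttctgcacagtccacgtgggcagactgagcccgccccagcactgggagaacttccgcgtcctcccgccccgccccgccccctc
Psmd6 (chr14:14120973-14121000, minus strand): agagacgcgaCCGGAAGTcagactggcg
Psmc1 (chr12:100110163-100110190, plus strand): tggtggatgcACTTCCGGcggtggcgat

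Windows were found for 38 of the 46 members, 41 windows in all. In the 250 bases before the start, the antioxidant core was matched in 12.2% of the members' windows (Psmb5, Psmb6, Psmc6, Psmd9 and Psmd12), against 10.2% of all 32851 windows. The ETS core was matched in 14.6% (Psmc1, Psmc2, Psmd6, Psmd12 and Psme4), against 2.88% of all windows. CCAAT was found in 31.7% of the members' windows and 33.8% of all, and TATAAA in 7.32% and 12.4%. A match is a description of the sequence, not of a bound site.

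In the DMSO cultures the subunit genes of the complex lay in a band of levels, with the chaperones below it. Compared per kilobase of the longest principal transcript, the 7 beta genes had DMSO means of 64.1 to 250 CPM per kb, the 6 ATPases of 42.3 to 89.4 CPM per kb, and the 7 alpha genes other than Psma8 of 29.3 to 142 CPM per kb. Psmd8 and Psmb6 were highest, Psmd8 with 278 ± 12.5 CPM per kb and Psmb6 with 250.4 ± 11.7 CPM per kb (SD, n = 4), which did not overlap. Psmd8 exceeded the next non-ATPase subunit, the base scaffold Psmd2 with 110.4 ± 2.08 CPM per kb, by more than their spread, and Psmb6 likewise exceeded Psmb4 with 114 ± 7.69 CPM per kb. These 2 genes are also among the members with the largest differences under treatment.

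Chaperones were lower, from 3.47 ± 0.515 CPM per kb for Psmg3 to 21.6 ± 2.90 CPM per kb for Psmg4, both subunits of the chaperones that build the alpha ring. Neighbours in this order, such as Psmd9, Psmg2 and Psmd5 at 9.91 to 10.3 CPM per kb, did not differ beyond their spread. Psma8, the testis form of an alpha subunit, was at 1.41 ± 0.166 CPM per kb and Psmc3ip at 0.693 ± 0.227 CPM per kb. Of the regulators, Psme2 and Psme1, the subunits of the interferon-inducible activator PA28, were highest at 144 ± 7.77 and 81.5 ± 3.68 CPM per kb, and Psmf1, the inhibitor PI31, was lowest at 8.17 ± 0.465 CPM per kb.

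**Figure D1:**
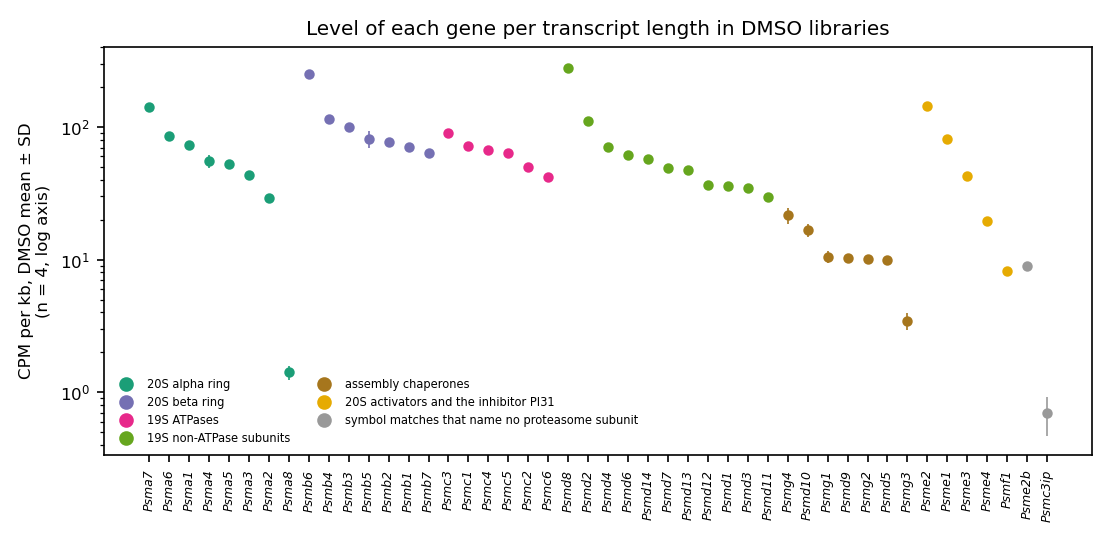
DMSO mean level of each of the 46 genes in CPM per kb of the longest principal transcript, on a log axis, ordered within role; points are means and bars SD of 4 libraries. Psmd8 and Psmb6 lie at the top, the 7 chaperones between 3.47 and 21.6 CPM per kb, and Psma8 and Psmc3ip at the bottom.

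The libraries of the DMSO group were close to each other on these genes. The median coefficient of variation over 4 DMSO libraries was 4.71% for the 46 members, 9.09% for all tested genes and 5.32% for the 1386 genes within the members' middle range of DMSO levels. Psmd11, a lid subunit, varied least at 1.60%, and of the members over 10 CPM per kb Psmb5 varied most at 14.8%. Some members share sequence with other genes. Of the 31-base words in their transcripts, 71.7% for Psmb5 and 78.4% for Psme2b also occur in transcripts of other genes. Gm3375 and Psme2 held the most of these matches, and their own shares were not computed. Shares over 10% were also found for Psma5 (58.7%), Psme2 (33.5%), Psmc1 (32.2%), Psmd2 (31.6%), Psmb3 (21.7%), Psma3 (19.5%), Psma4 (18.2%) and Psmd11 (13.1%). How far shared sequence affects the counted reads was not tested, so the levels of these genes are less certain. The strand column used for counting is not given in the sources used here, and Psma4, Psma5, Psmb7, Psmc3, Psmc3ip, Psmd1, Psmd3, Psmd9, Psmd13 and Psme1 overlap a gene on the other strand, whose reads could not then be told apart.

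Under treatment the members' fold changes were spread less widely than those of all genes. The interquartile range of their log2 fold changes was 0.19 with olaparib and 0.27 with MNA, against 0.51 and 0.52 for all 12849 genes, and a log2 fold change of at least 0.5 in size was estimated for 2.17% and 6.52% of the members, against 25.0% and 26.7% of all genes. The genes compared with include many of lower counts, which varied more in DMSO, as given above. Fold changes of the members ran from -0.52 to 0.41 with olaparib and from -0.59 to 0.63 with MNA. Their median was -0.032 with olaparib, with 20 members above 0 and 26 below, and -0.077 with MNA, with 18 above and 28 below, beside medians of 0.0038 and 0.00020 over all genes. With olaparib, Psma7, Psmc5, Psmd1 and Psmd2 lay near 0 and changed sign under another scaling of the libraries. Both comparisons use the same 4 DMSO libraries.

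**Figure D2:**
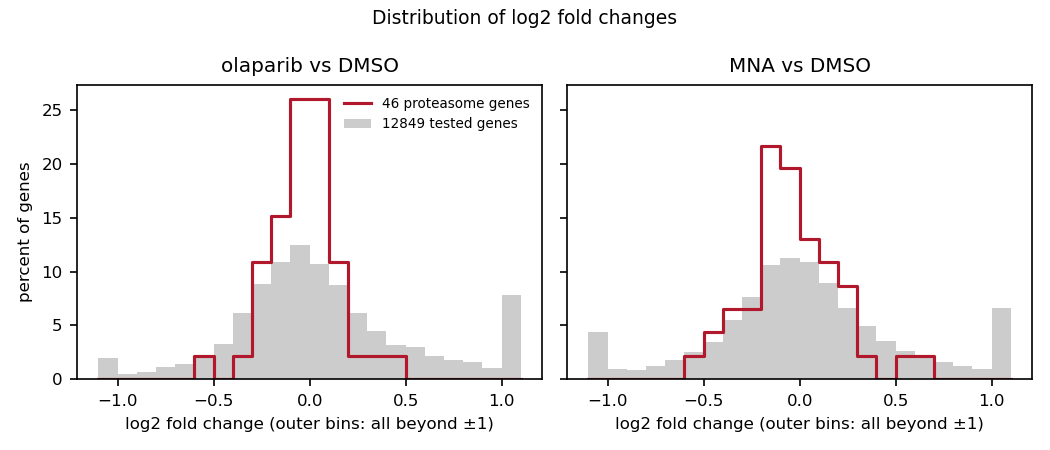
Percent of genes in bins of 0.1 of the log2 fold change, for 46 proteasome genes (red line) and all 12849 tested genes (grey bars), with olaparib (left) and MNA (right) against DMSO; the outer bins hold all values beyond 1. The members' line is narrower than the bars, with an interquartile range of 0.19 against 0.51 with olaparib and of 0.27 against 0.52 with MNA.

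With olaparib, 2 of the 46 members rose and 5 fell, where 14.3% of all tested genes rose and 12.8% fell, so the members' shares were not above those of all genes. Psma4 and the chaperone Psmd5 rose, and Psmd8, Psmd4, Psmd6, Psmc6 and Psme3 fell. For 6 members every olaparib library was above every DMSO library and for 12 every one was below, beside 20.7% and 20.3% of all genes. Psmd8 and Psmd5 kept their call whichever of the 12 libraries was left out. Without MNA replicate 2, which enters this comparison through the shared estimate of spread, 4 members rose and 9 fell, where 22.5% and 21.2% of all genes did.

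The largest difference with olaparib was that of Psmd8. Its level was 408, 422, 429 and 454 CPM in DMSO replicates 1 to 4 and 302, 297, 278 and 315 CPM in olaparib replicates 1 to 4. Every olaparib library was below every DMSO library, with a log2 fold change of -0.52 ± 0.11 (SE) and an adjusted p of 0.00718 in edgeR. Psmd4, one of the ubiquitin receptors of the 19S particle, was at 86.8, 95.8, 97.6 and 94.2 CPM with DMSO and 80.2, 80.1, 71.98 and 81.7 CPM with olaparib. It fell by 0.25 on the log2 scale (edgeR adjusted p = 0.0189) without overlap of the groups, and the call was lost without DMSO replicate 2, DMSO replicate 3 or olaparib replicate 3, where the adjusted p reached 0.0569. Psmd6 lay at 81.03 to 86.02 CPM with DMSO and 70.4 to 75.2 CPM with olaparib, a log2 fold change of -0.21 ± 0.059 (SE) (edgeR adjusted p = 0.0195), and lost its call without DMSO replicate 4 or olaparib replicate 2, with an adjusted p of up to 0.0553. Of the 11 non-ATPase subunits 9 were below 0, although Psmd1 and Psmd2 changed sign under another scaling. Psmd14, the deubiquitinase that cuts chains from the substrate, had 84.4, 89.8, 85.1 and 93.2 CPM with DMSO and 75.00, 78.6, 81.02 and 86.6 CPM with olaparib, which overlapped (edgeR adjusted p = 0.427).

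Among the ATPases, Psmc6 fell from 96.1, 91.7, 92.98 and 97.1 CPM to 78.3, 78.98, 74.3 and 84.7 CPM, a log2 fold change of -0.26 ± 0.079 (SE) with an edgeR adjusted p of 0.032. The groups did not overlap, but the adjusted p rose to as much as 0.0859 when any 1 of the 4 DMSO libraries or of olaparib replicates 1, 2 and 3 was left out. In all, 3 ATPases were below 0 and 3 above, of which Psmc5 changed sign under another scaling. Psmc1 was at 112 to 119 CPM with DMSO and 121 to 129.9 CPM with olaparib, higher without overlap, although its edgeR adjusted p was 0.167.

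Of the alpha genes Psma4 rose. Its DMSO levels were 75.2, 61.1, 57.6 and 64.3 CPM and its olaparib levels 81.2, 82.9, 84.6 and 93.01 CPM. The olaparib libraries were all higher, DMSO replicate 1 coming nearest to them, with a log2 fold change of 0.41 ± 0.14 (SE) and an edgeR adjusted p of 0.0436. This call was lost in 8 of the 12 leave-outs (DMSO replicates 2, 3 and 4, olaparib replicates 1 to 4, and MNA replicate 1), with an adjusted p of up to 0.117, and 18.2% of the words of Psma4 are shared with another gene.

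No beta gene passed the test with olaparib. Psmb6, which carries the caspase-like site of the core, nevertheless separated the groups, with 189, 207, 208 and 196 CPM in the DMSO libraries and 150.4, 148, 157 and 153 CPM in the olaparib libraries. Its log2 fold change was -0.39 ± 0.19 (SE) with an edgeR adjusted p of 0.143. The adjusted p became 0.000628 without MNA replicate 2, a library in neither group of this comparison. That library enters through the pooled spread, and the filter, scaling and adjustment were also rerun without it. Psmb5, with the chymotrypsin-like site that proteasome inhibitors target, had 78.04, 74.9, 75.3 and 73.5 CPM with olaparib, inside the range of 60.6 to 84.7 CPM with DMSO. Psmb7, with the trypsin-like site, was at 78.8, 74.9, 70.8 and 72.6 CPM with DMSO and 78.8, 83.3, 83.8 and 91.8 CPM with olaparib, which touched at replicate 1 (edgeR adjusted p = 0.117).

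The chaperone Psmd5, which guides the assembly of the ATPase ring, rose with olaparib. It was at 42.8, 44.2, 39.7 and 47.6 CPM with DMSO and at 54.1, 55.5, 50.8 and 57.3 CPM with olaparib. Every olaparib library was above every DMSO library, with a log2 fold change of 0.32 ± 0.069 (SE) and an edgeR adjusted p of 0.00645. The other 6 chaperones were below 0, from -0.26 for Psmg1 to -0.053 for Psmg3, and none of them passed the test. Psmd9, a chaperone of the same ATPase ring, was at 25.4, 26.05, 29.9 and 26.1 CPM with DMSO and 22.3, 23.5, 25.2 and 23.5 CPM with olaparib, lower without overlap but with an edgeR adjusted p of 0.249.

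Psme3, the nuclear activator of the 20S particle, fell from 113, 109.7, 113 and 120.1 CPM to 102, 96.5, 103 and 100.1 CPM with olaparib. The groups did not overlap, and the log2 fold change was -0.18 ± 0.050 (SE) with an edgeR adjusted p of 0.0208, up to 0.0701 without DMSO replicate 4 or olaparib replicate 2. The other 4 regulators were above 0 and did not pass the test. Psmf1 was at 33.6, 31.03, 30.5 and 29.4 CPM with DMSO and 34.1, 33.8, 38.4 and 36.3 CPM with olaparib, separated by a small gap (edgeR adjusted p = 0.199, and 0.0232 without MNA replicate 2). Psme4, a large nuclear activator, lay at 123, 123, 133 and 131 CPM with DMSO and 123, 128, 131 and 136 CPM with olaparib, which overlapped.

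**Figure D3:**
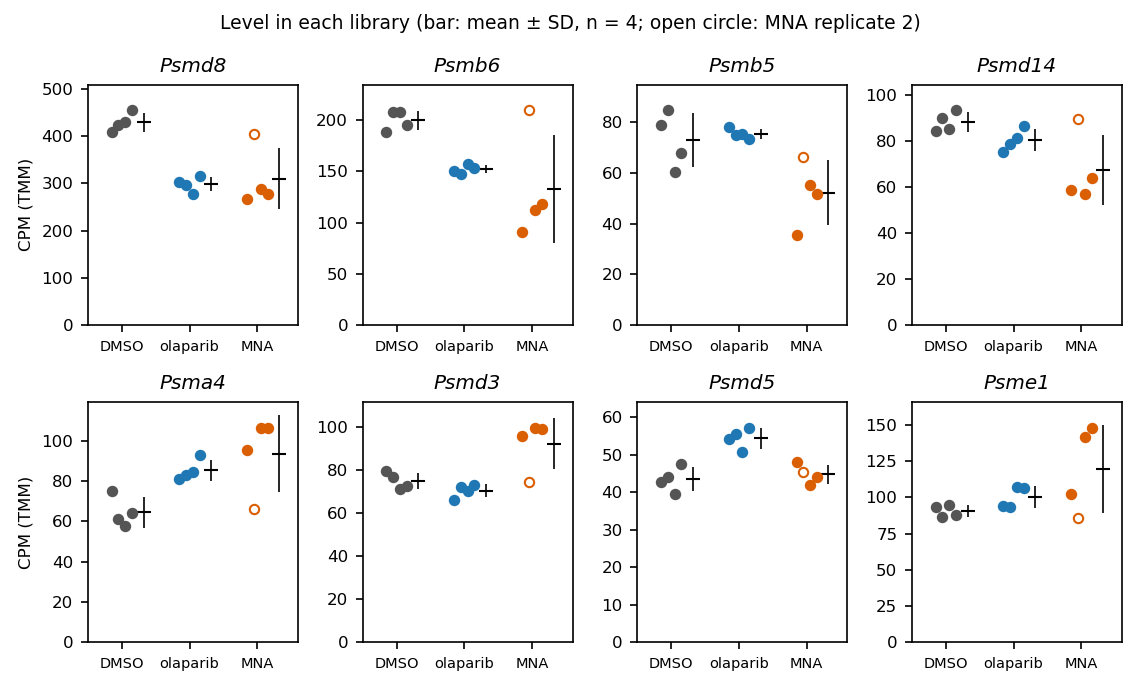
CPM of 8 members in each library, with replicates 1 to 4 from left to right within a group and the mean ± SD of 4 libraries beside them; the axes start at 0 and the open circle is MNA replicate 2. Psmd8 is lower in all 4 olaparib and all 4 MNA libraries, MNA replicate 2 lying closest to DMSO, and for Psmb6 the MNA replicate 2 value of 209.6 CPM lies above all DMSO values.

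With MNA, 4 of the 46 members rose and 8 fell, where 16.3% of all tested genes rose and 12.3% fell. Those that rose were Psma1, Psma4, Psmd3 and Psme2b. The 8 that fell were Psmb5 and Psmb6 of the beta ring, the ATPases Psmc3, Psmc4 and Psmc6, and Psmd6, Psmd8 and Psmd14 of the other 19S subunits. Psma1 was higher without overlap, and Psmc3, Psmd8 and Psmd11 were lower without overlap, beside 6.24% and 6.12% of all genes. Psma1, Psmd3, Psmc4, Psmd6 and Psmd11 are named here after their values were seen.

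Without MNA replicate 2 the counts were 10 up and 16 down, where 27.2% and 26.9% of all genes were called, and the groups did not overlap for 7 members that were higher and 19 that were lower, beside 27.2% and 27.2% of all genes. The share of lower members was thus 19 of 46, above the background share, and no test of that share was made. None of the 12 calls made with all libraries was kept in every leave-out. No member was called without MNA replicate 1, 3 or 4. Leaving out a DMSO library left 3 up and 3 down without replicate 1, 0 up and 3 down without replicate 2, 0 up and 2 down without replicate 3, and 1 up and 2 down without replicate 4. Leaving out olaparib replicate 1, 2, 3 or 4 gave 3 and 4, 3 and 3, 4 and 5, and 3 and 5 calls up and down. A fit of the MNA and DMSO libraries alone called 0 of all tested genes, including the members, whereas DESeq2 on all 12 libraries called 6 members up and 9 down.

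With all libraries, the beta genes Psmb6 and Psmb5 had the largest falls with MNA, and without replicate 2 those of Psmb6 and Psmd8 were largest. For Psmb6 the MNA libraries held 91.2, 209.6, 112 and 118 CPM in replicates 1 to 4, against 189 to 208 CPM with DMSO. Replicates 1, 3 and 4 were far below every DMSO library and replicate 2 was above all of them, so that the log2 fold change of -0.59 ± 0.19 (SE) with an edgeR adjusted p of 0.0407 became -0.90 ± 0.080 (SE) with an adjusted p of 5.76e-07 without replicate 2. Psmb5 was lowest in the same 3 replicates, with 35.4, 66.4, 55.2 and 51.7 CPM against 78.8, 84.7, 60.6 and 68.03 CPM with DMSO. Its log2 fold change was -0.48 ± 0.16 (SE) (edgeR adjusted p = 0.0387) with all libraries and -0.62 ± 0.13 (SE) (adjusted p = 0.00139) without replicate 2. Most of the words of Psmb5 are shared with other genes, as given above. Psmb7, the third catalytic gene, had 59.2, 74.9, 74.1 and 78.2 CPM with MNA, which overlapped with DMSO in both settings, and an adjusted p of 0.644 with all libraries and 0.463 without replicate 2. Of the catalytic genes, the fall was thus called for Psmb5 and Psmb6, and the difference between them and Psmb7 was not tested.

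All 6 ATPases had negative log2 fold changes with MNA, from -0.36 to -0.100. Psmc3 was at 143, 147, 144 and 151 CPM with DMSO and 108, 138, 105 and 106 CPM with MNA. Every MNA library was below every DMSO library, with a log2 fold change of -0.36 ± 0.084 (SE) and an edgeR adjusted p of 0.0168, up to 0.0591 without MNA replicate 1, 3 or 4 and 7.04e-06 without replicate 2. Psmc6 held 73.2, 94.1, 77.5 and 73.3 CPM with MNA, replicate 2 lying among the DMSO libraries, with a log2 fold change of -0.25 ± 0.079 (SE) (edgeR adjusted p = 0.0372) and -0.34 ± 0.054 (SE) without replicate 2 (adjusted p = 0.000115). Psmc4 held 68.3, 91.4, 74.1 and 75.2 CPM with MNA against 90.97 to 104 CPM with DMSO, a log2 fold change of -0.32 ± 0.083 (SE) (edgeR adjusted p = 0.021) and -0.41 ± 0.060 (SE) without replicate 2 (adjusted p = 5.46e-05). Without MNA replicate 2, 5 of the 6 ATPases fell, Psmc1 being the exception with an adjusted p of 0.0835.

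Psmd8 and Psmd14 fell and Psmd3 rose among the other 19S subunits. Psmd8 was at 267, 405, 289 and 277 CPM with MNA, all 4 libraries lying below the lowest DMSO library, replicate 2 by less than 4 CPM. Its log2 fold change was -0.47 ± 0.11 (SE) with an edgeR adjusted p of 0.019, which reached 0.0639 without MNA replicate 1, 3 or 4, and it was -0.63 ± 0.061 (SE) without replicate 2. Psmd14 held 58.8, 89.6, 57.1 and 63.98 CPM, where only replicate 2 lay among the DMSO libraries, with a log2 fold change of -0.39 ± 0.12 (SE) (edgeR adjusted p = 0.0354) and -0.56 ± 0.063 (SE) without replicate 2. Psmd3, a lid subunit like Psmd8, moved the other way, with 95.9, 74.4, 99.7 and 98.8 CPM against 79.5, 76.6, 71.2 and 72.5 CPM with DMSO. Its replicates 1, 3 and 4 were above every DMSO library, with a log2 fold change of 0.30 ± 0.087 (SE) (edgeR adjusted p = 0.0282) and 0.39 ± 0.053 (SE) without replicate 2. Psmd4 was at 78.2, 93.8, 81.4 and 85.4 CPM with MNA and did not pass the test with all libraries (edgeR adjusted p = 0.123), but did without replicate 2 (adjusted p = 0.0132). For Psmd6 the log2 fold change was -0.17 ± 0.059 (SE) (edgeR adjusted p = 0.0456, and 0.0664 with the replicate number as a block) and -0.23 ± 0.046 (SE) without replicate 2 (adjusted p = 0.000887).

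In the alpha ring the direction was mixed. Psma4 held 95.3, 65.9, 107 and 106 CPM with MNA, replicates 1, 3 and 4 above every DMSO library and replicate 2 within their range, with a log2 fold change of 0.54 ± 0.14 (SE) (edgeR adjusted p = 0.0202) and 0.67 ± 0.082 (SE) without replicate 2. Psma1 was at 92.1 to 117 CPM with MNA and 85.6 to 90.1 CPM with DMSO, and rose by 0.24 on the log2 scale (edgeR adjusted p = 0.0244), or by 0.30 without replicate 2 (adjusted p = 0.000599). Without replicate 2, Psma1, Psma2, Psma4 and Psma5 rose and Psma3 and Psma6 fell, Psma6 from 82.6 to 93.8 CPM to 62.1, 68.97 and 77.9 CPM in MNA replicates 1, 3 and 4 (log2 fold change -0.36 ± 0.070 (SE), edgeR adjusted p = 0.000628).

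None of the 7 chaperones passed the test with MNA and all libraries. Psmd9 held 16.6, 25.97, 24.04 and 22.6 CPM with MNA, an edgeR adjusted p of 0.0974 that became 0.0148 without replicate 2. The 5 regulators all had positive log2 fold changes, from 0.012 for Psme3 to 0.40 for Psme1, and none passed the test with all libraries. Without replicate 2, Psme3 was at -0.0050. Psme1 held 102, 85.6, 141 and 148 CPM with MNA against 93.6, 86.4, 94.7 and 87.9 CPM with DMSO. Replicates 3 and 4 were far above the DMSO libraries, replicate 1 slightly above and replicate 2 below them, with a log2 fold change of 0.40 ± 0.14 (SE) (edgeR adjusted p = 0.0561, 0.0404 with the replicate block, and 0.000744 without replicate 2). Psme2, its partner, held 138, 138, 180.3 and 193 CPM with MNA against 132, 146, 145 and 132 CPM with DMSO, which overlapped, with an adjusted p of 0.119 that became 0.0182 without replicate 2. Psmf1 held 38.8, 28.9, 42.8 and 42.6 CPM, again with replicate 2 lowest, and an adjusted p of 0.0587 with all libraries and 0.000173 without replicate 2. Psme3 and Psme4 held 109.5, 118, 115 and 117 CPM and 144, 126, 123 and 124 CPM, both overlapping with DMSO. Psme2b, whose reads overlap with those of Psme2 in sequence, held 9.62, 7.38, 14.9 and 14.7 CPM against 7.69, 7.81, 7.64 and 7.08 CPM with DMSO and 7.98, 8.57, 11.8 and 8.78 CPM with olaparib, and its rise with MNA had a log2 fold change of 0.63 ± 0.21 (SE) (edgeR adjusted p = 0.0421) and 0.79 ± 0.16 (SE) without replicate 2 (adjusted p = 0.000825).

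**Figure D4:**
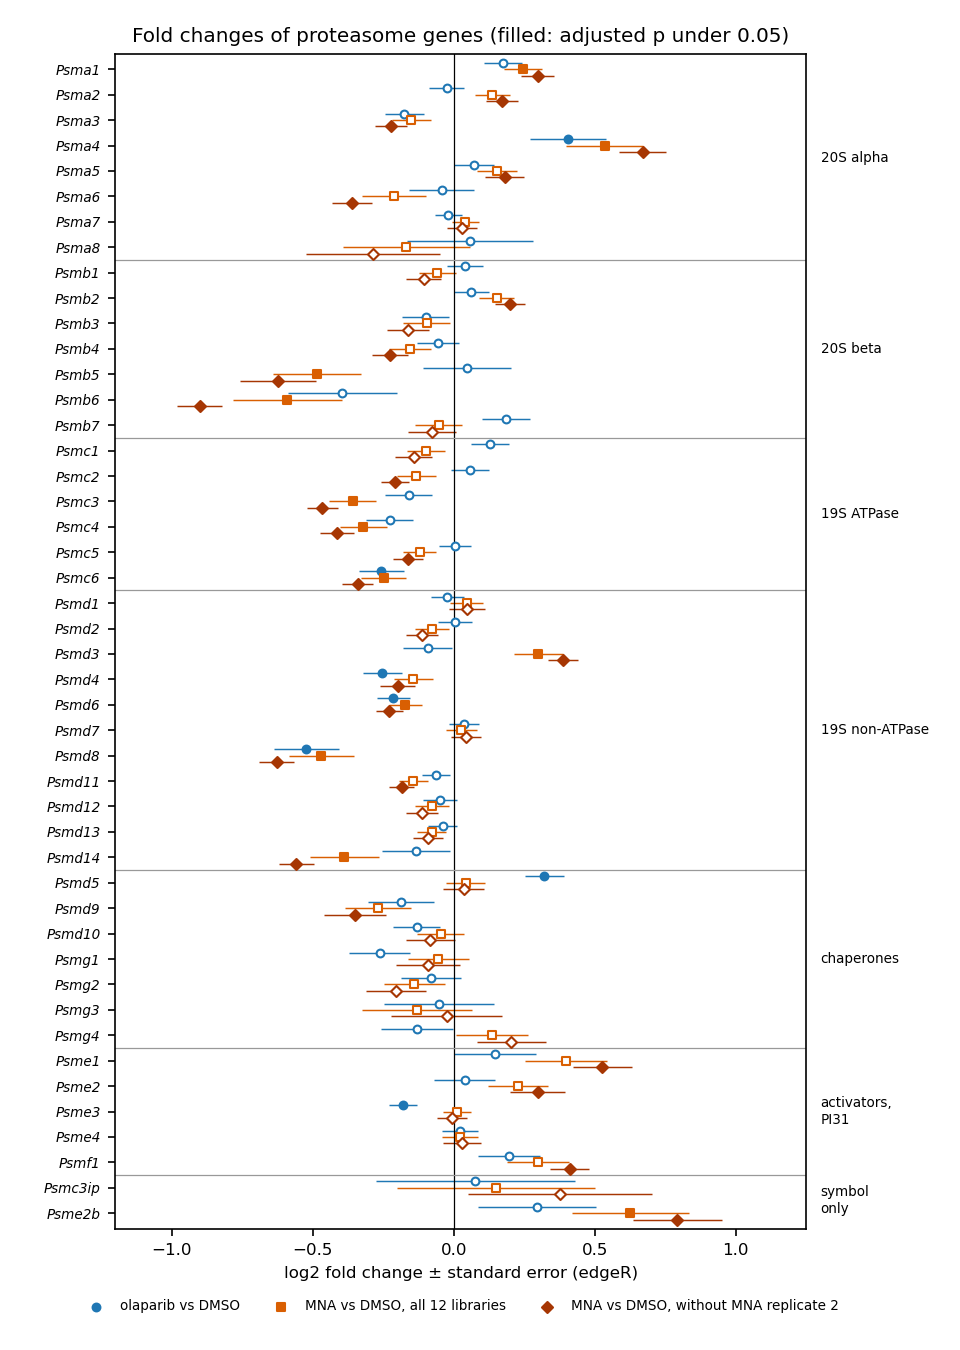
Log2 fold change ± SE (edgeR) of the 46 genes against DMSO, with olaparib (circles), with MNA in all 12 libraries (squares) and with MNA without replicate 2 (diamonds); filled symbols have an adjusted p under 0.05. The squares of all 6 ATPases lie left of 0 and those of all 5 regulators right of it, and 26 diamonds are filled against 12 squares.

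Compared directly, olaparib libraries were higher than MNA libraries for 3 members and lower for 2, where 10.9% and 10.9% of all genes were called. Psmb5, Psmc1 and Psmd5 were higher with olaparib, and Psmd3 and Psme3 were lower. The libraries did not overlap for 4 members that were higher and 3 that were lower, beside 11.5% and 9.69% of all genes. Psmd3 kept this call in every leave-out, with a log2 fold change of -0.39 ± 0.087 (SE) (edgeR adjusted p = 0.00824, at most 0.0267) and 66.1, 71.9, 70.3 and 72.9 CPM with olaparib. Psme3 was lower with a log2 fold change of -0.19 ± 0.050 (SE) (edgeR adjusted p = 0.0178, and up to 0.0659 without olaparib replicate 2). Psmd5 was higher by 0.28 (edgeR adjusted p = 0.0143, and up to 0.057 without olaparib replicate 4 or MNA replicate 3), its MNA libraries holding 48.03, 45.4, 41.95 and 44.1 CPM. Psmb5 was higher by 0.53 (edgeR adjusted p = 0.0305, up to 0.0684 without MNA replicate 3 or 4 or any olaparib library), and Psmc1 by 0.23 (edgeR adjusted p = 0.0302, up to 0.0806 without MNA replicate 1 or 3 or any olaparib library).

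Without MNA replicate 2, 12 members were higher with olaparib and 9 were lower, where 21.5% and 20.7% of all genes were called, and the libraries did not overlap for 14 and 8 members, beside 23.5% and 22.8% of all genes. Psmb6 was then higher with olaparib by 0.50 (edgeR adjusted p = 0.000185), Psmd14 by 0.42 (adjusted p = 0.000115) and Psma6 by 0.32 (adjusted p = 0.00245). All 6 ATPases were above 0 in that fit, and 5 of them were called. Psmd8, by contrast, was not called in either setting, with a log2 fold change of -0.054 ± 0.11 (SE) with all libraries and 0.10 ± 0.061 (SE) without replicate 2.

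**Figure D5:**
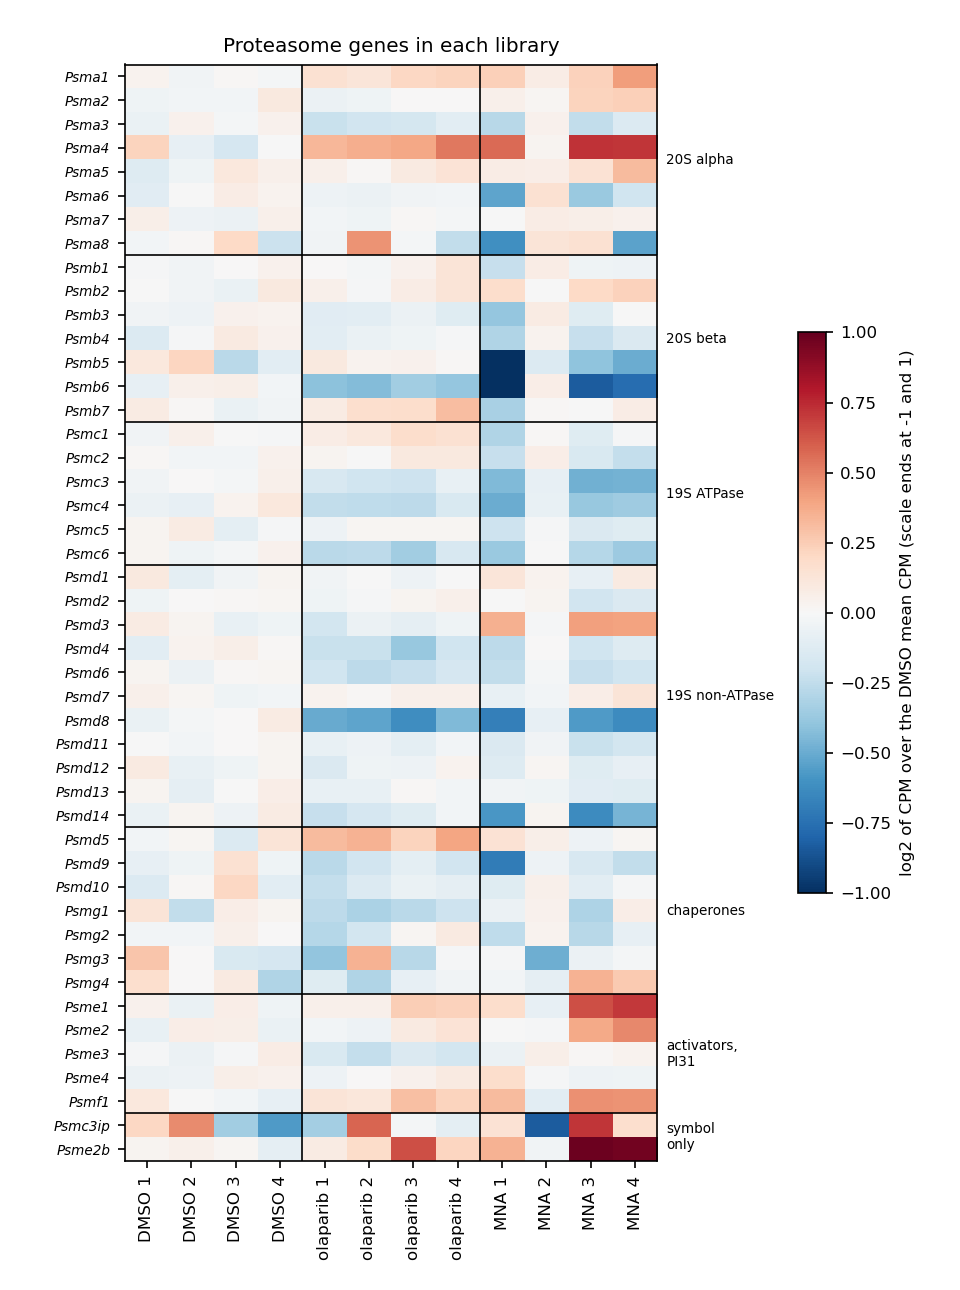
Log2 of each library's CPM over the DMSO mean CPM, for 46 genes (rows, grouped by role) in 12 libraries (columns); red is higher, blue is lower, and the colours end at -1 and 1. Psmd8 is blue in the 4 olaparib columns, and Psmb6, Psmb5 and Psmd14 are blue in MNA replicates 1, 3 and 4 but pale in MNA replicate 2.

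Levels were summed over the 31 members that are alpha, beta, ATPase or non-ATPase subunits, without Psma8. Adrm1 and Sem1, proteasome subunits whose symbols lie outside the chosen pattern, are not in this sum, so it does not cover the complete complex. The sum was 3512 to 3633 CPM with DMSO (3553 ± 54.5, SD, n = 4) and 3264 to 3440 CPM with olaparib (3323 ± 80.7). In MNA replicates 1 to 4 it was 2998, 3572, 3127 and 3219 CPM (3115 ± 111 without replicate 2). The olaparib sums and the sums of MNA replicates 1, 3 and 4 lay below all DMSO sums. Without Psmd8 and Psmd2, the 2 members with the highest CPM, the sum was 2775 to 2847 CPM with DMSO and 2644 to 2787 CPM with olaparib, which overlapped, and 2405, 2835, 2552 and 2646 CPM in MNA replicates 1 to 4, of which replicates 1, 3 and 4 stayed below all DMSO sums.

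By role, the 11 non-ATPase subunits summed to 1514 to 1576 CPM with DMSO and 1334 to 1407 CPM with olaparib, and to 1323, 1512, 1295 and 1324 CPM in MNA replicates 1 to 4. The 7 beta genes summed to 734 to 762 CPM with DMSO, 695 to 731 CPM with olaparib, and 535, 768, 624 and 645 CPM with MNA. The 6 ATPases summed to 615 to 641 CPM with DMSO, 583 to 619 CPM with olaparib, and 490.2, 616, 517 and 519.8 CPM with MNA. The 8 alpha genes summed to 639 to 666 CPM with DMSO and 651 to 685 CPM with olaparib. In MNA replicates 1 to 4 the alpha sums were 651, 679, 693 and 732 CPM. Of these, replicate 1 lay inside the DMSO range and replicate 2 above it. The 5 regulators summed to 495 to 516 CPM with DMSO and 485 to 531 CPM with olaparib. Their sums were 533, 497, 603 and 624 CPM in MNA replicates 1 to 4. Chaperone sums overlapped in all 3 groups, at 121 to 139 CPM.

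The other genes of the pathway were read from a list of 35, of which 34 were tested. With olaparib 2 of the 34 rose and 7 fell, and with MNA 6 rose and 6 fell, beside the shares of all genes given above. Without MNA replicate 2 these counts among the 34 were 8 and 15 with olaparib, beside 22.5% and 21.2% of all genes. With MNA they were then 13 and 13, beside 27.2% and 26.9% of all genes. The products of the immunoproteasome genes take the places of Psmb5, Psmb6 and Psmb7. Summed over Psmb8, Psmb9 and Psmb10, their level was 202 to 229 CPM with DMSO, 197 to 253 CPM with olaparib and 276, 197, 372 and 408 CPM in MNA replicates 1 to 4. Psmb9, which takes the place of Psmb6, was at 19.2, 21.9, 23.99 and 23.6 CPM with DMSO, 27.3, 30.3, 42.9 and 43.3 CPM with olaparib and 61.1, 21.1, 79.1 and 84.7 CPM with MNA. It rose with MNA by 1.47 on the log2 scale (edgeR adjusted p = 0.016), a call lost without MNA replicate 3 or 4 (up to 0.0538), and by 1.75 without replicate 2 (adjusted p = 6.39e-07). With olaparib its groups did not overlap but the adjusted p was 0.131 (0.00205 without MNA replicate 2). Psmb8, which takes the place of Psmb5, held 26.5, 33.03, 28.1 and 25.01 CPM with DMSO, 33.1, 35.4, 36.4 and 44.1 CPM with olaparib and 29.9, 24.3, 49.7 and 64.02 CPM with MNA, and passed no test with all libraries, but rose with MNA by 0.76 without replicate 2 (edgeR adjusted p = 0.00364). Psmb10, which takes the place of Psmb7, held 156, 148, 177 and 164 CPM with DMSO, 137, 142, 167 and 165 CPM with olaparib and 185, 152, 243 and 259 CPM with MNA (edgeR adjusted p against DMSO = 0.067 for MNA, 0.0015 without replicate 2). Pomp, the chaperone that completes the 20S particle, rose with MNA from 77.96, 83.8, 74.5 and 75.2 CPM to 128, 82.1, 169.6 and 182 CPM (log2 fold change 0.85 ± 0.19 (SE), edgeR adjusted p = 0.0152, up to 0.0537 without MNA replicate 3 or 4, and log2 fold change 1.04 with adjusted p = 9.49e-07 without replicate 2) and was at 86.6, 91.1, 92.4 and 98.6 CPM with olaparib (adjusted p = 0.344).

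Of the transcription factors, Nfe2l2 rose with both compounds. It was at 423, 336, 326 and 343 CPM with DMSO, 655, 712, 709 and 718 CPM with olaparib and 925, 369, 907 and 835 CPM with MNA. All olaparib libraries and MNA replicates 1, 3 and 4 were above every DMSO library, with log2 fold changes of 0.97 ± 0.22 (SE) (edgeR adjusted p = 0.00923) and 1.09 ± 0.22 (SE) (edgeR adjusted p = 0.0142) that were called in all 12 leave-outs, at an adjusted p of at most 0.0308 and 0.0488. Without MNA replicate 2 the log2 fold change with MNA was 1.31 ± 0.083 (SE) (adjusted p = 2.73e-08). Nfe2l1, the factor that raises proteasome genes when the complex is inhibited, held 341, 360.3, 347 and 335 CPM with DMSO, 308, 296, 292 and 271 CPM with olaparib and 263, 352, 325 and 312 CPM with MNA. It fell with olaparib (log2 fold change -0.25 ± 0.082 (SE), edgeR adjusted p = 0.0434), a call lost in 9 of the 12 leave-outs, those of any DMSO or olaparib library or of MNA replicate 4, with an adjusted p of up to 0.114. With MNA its adjusted p was 0.186 with all libraries and 0.0265 without replicate 2, at a log2 fold change of -0.21. Of the 5 members with the antioxidant core before their start, Psmb5, Psmb6 and Psmc6 fell with MNA, Psmc6 fell with olaparib, and Psmd9 and Psmd12 were called with neither when all libraries were used. The relation of these motifs to the levels was not tested.

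Uba6, an enzyme that activates ubiquitin, was at 55.4, 56.2, 57.1 and 61.4 CPM with DMSO, 49.7, 47.9, 42.4 and 42.4 CPM with olaparib and 81.7, 62.1, 63.7 and 65.6 CPM with MNA. It fell with olaparib (log2 fold change -0.33 ± 0.091 (SE), edgeR adjusted p = 0.0192, up to 0.0624 without DMSO replicate 4 or olaparib replicate 3 or 4), and all MNA libraries were above all DMSO libraries, with an adjusted p of 0.0571 and, without replicate 2, 0.0124 (log2 fold change 0.29).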

How the data were processed

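Poly(A) RNA of 12 cultures was sequenced as 150-bp single-end reads from a stranded library kit. Per the study's methods, the authors aligned the reads with STAR 2.5.2b to GRCm38.p5 with Ensembl annotation and deposited STAR's read counts per gene, 1 unnormalised column of whole numbers per library; which strand column was taken is not given in the sources used here. All 12 columns were matched to a labelled sample.

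Gene identifiers were matched to GENCODE M21 (GRCm38) symbols, 34490 of 35275. Genes with few counts were removed with filterByExpr (minimum count 10, minimum total 15), leaving 12849. The deposited counts were fitted with edgeR 4.0.16 (TMM, quasi-likelihood test) in R 4.3.3, with 1 fit of the 3 groups of 4 libraries and a contrast for each comparison, two-sided, and p-values were adjusted by the Benjamini-Hochberg method over all tested genes. On simulated counts for olaparib against DMSO over 12849 genes, the fit called 66 of 100 genes changed by 0.75 log2. It called 100 of 100 changed by 1.5 log2 and 11 of 12649 unchanged genes. The simulation gave every gene the same dispersion, changed only genes with higher counts and held no deviating library. Its changes were larger than any of the members with olaparib, so it does not measure power at their sizes. Alternatives were DESeq2 1.42.0, other scalings and filters, a fit of the compared groups alone, the replicate number as a block, and each library left out in turn.

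Totals were 21146291 to 31446849 counts per library. Deviations of same-numbered libraries from their group means correlated with r of 0.172 to 0.408 for olaparib and DMSO. For MNA and DMSO r was -0.00938 to 0.277, and for olaparib and MNA 0.0696 to 0.392. The main fit used no replicate block, and the block among the alternatives covered all 3 groups. Levels per length used the longest APPRIS principal transcript.

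Genes given with every library were the catalytic subunits, Psmd4, Psmd14, Psme1 to Psme4, the member with the smallest p and that with the largest fold change in each role and each comparison with DMSO, and from the pathway list the 3 smallest p-values in each such comparison with Psmb8, Psmb9, Psmb10, Nfe2l1, Nfe2l2 and Pomp. A gene that this rule names is not reported here. Psma1, Psma6, Psmc1, Psmc4, Psmd3, Psmd6 and Psmd11 were named after their values were seen. The members and lists were chosen with earlier results of these data known.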

Additional observations from a re-analysis of the deposited data

Results flagged for a closer look

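Of 105 groups of 4 libraries examined over the named genes and summed levels, 7 held a library whose gap to its nearest neighbour took a share of the group's range above Dixon's critical value, which chance gives in about 1 in 20 groups. MNA replicate 2 was set apart in 3 of them, high for Psmc3 (a ratio of 0.896) and for the summed 19S non-ATPase subunits (0.864), and low for Nfe2l2 (0.888). Olaparib replicate 3 was low for Psmd4 (0.844) and olaparib replicate 1 was low for Nfe2l2 (0.866). DMSO replicate 3 was high for Psmd9 (0.835), and DMSO replicate 4 was high for the subunit sum given above without Psmd2 and Psmd8 (0.857).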

How the results depend on the processing

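Counts of members called are given as up and down, for olaparib against DMSO (2 and 5), MNA against DMSO (4 and 8) and olaparib against MNA (3 and 2). A fit of only the compared groups gave 6 and 11, 0 and 0, and 1 and 2, and a threshold of 0.01 gave 1 and 1, 0 and 0, and 0 and 1. The replicate block gave 2 and 5, 5 and 7, and 3 and 2, and with MNA replicate 2 also left out 4 and 11, 10 and 17, and 12 and 8, with the members' median log2 fold change at -0.12 for MNA against DMSO (-0.077 in the report) and 0.056 for olaparib against MNA (-0.0014). Library totals alone gave 1 up with olaparib against DMSO. For olaparib against MNA, DESeq2 and a mean of at least 50 counts each gave 5 up, and no filter gave 1 down. Leaving out 1 library at a time gave 1 to 4 and 2 to 9, 0 to 10 and 0 to 16, and 0 to 12 and 1 to 9, the highest each time without MNA replicate 2. The causes were not tested. Of 1275 values for 25 named genes, 1093 kept their call and direction, 125 lost the call and 37 gained it. Another 20 were counted as moved, which includes uncalled values that only changed sign, and no called value changed sign. MNA replicate 2, unlike the other MNA libraries, limits every MNA result, and the lowest counts are those of Psmc3ip and Psma8. The filter at 50 counts left 45 members tested.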
